A study of Mus musculus with 9 samples.

Results

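The genes described here encode the voltage-gated sodium and calcium channel subunits of the mouse, 40 of the 55401 genes in the deposited table. They were taken by gene symbol: the pore-forming sodium channel subunits (Scn followed by a number and a, 10 genes), the sodium channel beta subunits (Scn followed by a number and b, 4 genes), the pore-forming calcium channel alpha1 subunits (Cacna1, 10 genes), the alpha2delta subunits (Cacna2d1 to Cacna2d4, 4 genes), the calcium channel beta subunits (Cacnb1 to Cacnb4, 4 genes) and the Cacng family (8 genes). Tissue labelled brain was sequenced at day 28 in 9 libraries of wild-type mice, with an infarct in the Pushen and PT groups and none in the Sham group. In the Pushen group, photothrombosis (PT), in which light and a photosensitive dye close cortical vessels, was followed by oral Pushen from 24 h after surgery, with 391, 392 and 393 mg/kg written in the labels of libraries 1, 2 and 3. Whether these numbers are separate doses, or 1 dose counted up along the list, cannot be told from the labels, and the 3 libraries were treated as 1 group. The PT group had the same infarct and received ultrapure water, and the Sham group had sham surgery and ultrapure water, with 3 libraries each. Neither strain nor age is given in the labels, and nothing says that libraries came from separate animals. The p-values therefore speak to the spread among 3 libraries a group, part or all of which may be technical. This spread was estimated over all 3 groups, so a p-value also depends on the libraries of the group not compared.

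Sodium channels carry the inward current that starts and propagates action potentials, and their beta subunits adjust gating and anchor the channel at the axon initial segment and the nodes of Ranvier. Calcium channels turn depolarisation into calcium entry, for transmitter release, dendritic signalling, burst firing and gene regulation, and their alpha2delta and beta subunits bring the pore to the membrane. Most Cacng proteins of the brain act as TARPs, auxiliary subunits of AMPA-type glutamate receptors, rather than as calcium channel subunits. In cortex most of these genes are expressed mainly by neurons.

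Deposited counts summed to between 57437342 and 75100133 per library. The 40 genes took 0.403%, 0.407% and 0.386% of all counts in Pushen libraries 1, 2 and 3, 0.359%, 0.381% and 0.408% in PT libraries, and 0.454%, 0.480% and 0.454% in Sham libraries. The labels call the tissue brain, while their extraction protocol speaks of retinas. Summed FPKM (fragments scaled by gene length and library depth) of 21 pan-neuronal genes lay between 1714 and 2683 per library, and that of 12 photoreceptor and retina genes between 3.23 and 6.81. PT library 1 stood apart in markers of deep tissue: the summed FPKM of 10 striatal projection neuron genes was 608 there, 152 in PT library 2 and between 88.3 and 124 in the other libraries. Of the marker lists of other cells, all with 0 genes lower in PT against Sham, genes rose in 10 of 10 tested for fibroblasts and meninges, 8 of 10 for microglia and macrophages, 8 of 10 for endothelium, 6 of 9 for pericytes and smooth muscle, 6 of 6 for ependyma, 6 of 10 for oligodendrocytes, 4 of 9 for thalamus, 3 of 10 for striatum and 3 of 8 for choroid plexus. Among all tested genes 19.1% rose and 11.8% fell in PT against Sham. The thalamus list had a median log2 fold change of -0.0060, so its called rises were not a rise of the list as a whole. The summed FPKM of 10 choroid plexus genes was 636 in Pushen library 2 and 554 in PT library 1, each above every other library.

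A gene was tested where its mean over the 9 libraries was at least 0.5 FPKM, which 29 of the 40 passed. The lowest member inside this limit was Cacng5 with a mean of 1.78 FPKM, and the highest outside was Cacna2d4 with 0.376 FPKM. Tested were Scn1a, Scn2a, Scn3a and Scn8a, all 4 sodium channel beta genes, 8 of 10 alpha1 genes, 3 of 4 alpha2delta genes, all 4 calcium channel beta genes and 6 of 8 Cacng genes. The 11 genes under the limit included those typical of muscle (Scn4a, Cacna1s, Cacng1), peripheral sensory neurons (Scn9a, Scn10a, Scn11a) and retina (Cacna1f, Cacna2d4), with Scn7a, a sodium-sensing relative found in glia, and Cacng6. Scn4a had between 0 and 8 counts per library, Scn11a between 0 and 18, and Cacng1 between 0 and 52, the highest in PT library 1. Counts ranged between 10 and 72 (Cacna1s), 27 and 60 (Cacna1f), 33 and 71 (Cacng6), 59 and 239 (Scn7a), 62 and 157 (Scn10a), and 69 and 200 (Scn9a). Cacna2d4, with between 210 and 387 counts, was the most abundant of the 11 by mean FPKM.

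PT was compared with Sham to ask how transcripts differed after an infarct. The calcium channel beta subunit Cacnb4, the sodium channel genes Scn3a and Scn2b, and the TARP gene Cacng2 fell, as did Cacng3, Cacng8, the T-type channel genes Cacna1g and Cacna1i, and Cacnb3. Cacng5 rose. In edgeR's quasi-likelihood test, 10 of the 29 tested members (34.5%) passed a Benjamini-Hochberg adjusted p under 0.05, beside 30.9% of all 16740 tested genes. By direction, 9 members (31.0%) were lower, beside 11.8% of all tested genes, and 1 was higher, beside 19.1%. The fitted log2 fold change was negative for 24 members and positive for 5, with a median of -0.28 over the 29 members, against -0.0029 over all tested genes. At an unadjusted p under 0.05 there were 16 members, beside 42.9% of all tested genes. In bulk tissue, fewer neurons and less RNA per neuron cannot be told apart. Of the 21 pan-neuronal genes 15 fell and 0 rose, with a median of -0.44. The FPKM of PT and Sham did not overlap in 14 members, beside 47.9% of all tested genes: 12 were lower in PT (41.4%), beside 18.6%, and 2 higher (6.90%), beside 29.3%. Without PT library 2, Sham library 1 or Sham library 2, the number of members called was 6, 6 and 4. Calls fell among all tested genes too, to 2723 higher and 1299 lower, 2416 and 782, and 2365 and 1000 in these fits.

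**Figure D1:**
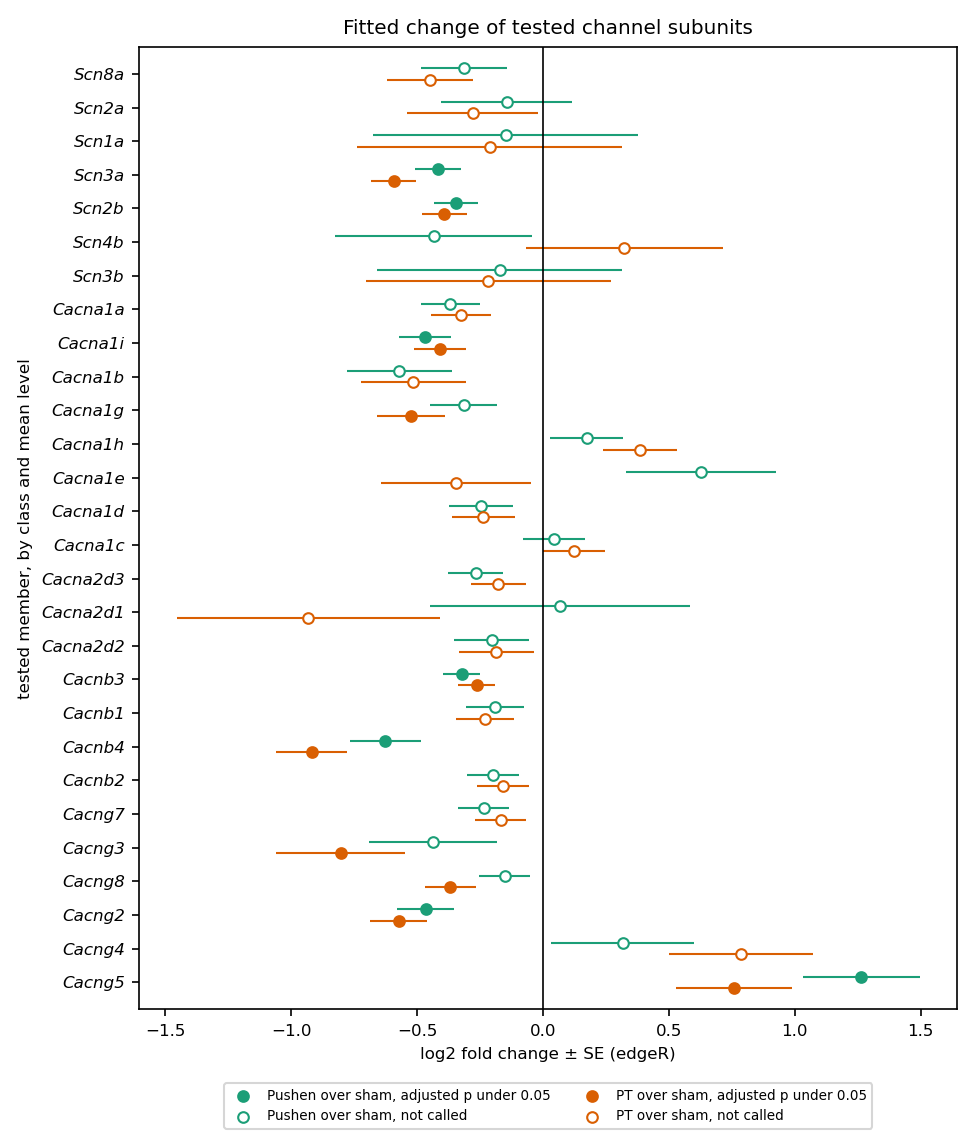
Fitted log2 fold change with its SE (horizontal axis) of tested members (vertical axis), Pushen over Sham in green above PT over Sham in orange, filled where the adjusted p was under 0.05. Most points lie left of 0, Cacnb4 at -0.63 with Pushen and -0.92 with PT, and Cacng5 right of 0 at 1.26 with Pushen and 0.76 with PT.

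Among pore-forming sodium channel genes, levels per gene length in Sham followed the order Scn8a, Scn2a, Scn1a and Scn3a, with Scn2a and Scn8a at 13.1 to 14.8 and 19.7 to 28.7 FPKM and Scn1a at 12.1 to 12.4 FPKM. Scn3a, which is most abundant before and around birth, measured 2.22, 1.91 and 2.28 FPKM in Pushen libraries, 1.82, 1.83 and 1.98 FPKM in PT libraries and 2.67, 2.81 and 2.70 FPKM in Sham libraries. Every Sham value lay above every PT and every Pushen value. Its log2 fold change of PT over Sham was -0.59 ± 0.091 (SE, adjusted p = 0.00189), the smallest p among the members. Scn8a, the main channel of mature initial segments and nodes, measured 15.2, 19.9 and 22.5 FPKM in PT libraries and 27.3, 28.7 and 19.7 FPKM in Sham libraries. These groups overlapped through Sham library 3, and the change of -0.45 ± 0.17 did not pass (adjusted p = 0.0759; 0.0261 without Sham library 3 and 0.0332 without PT library 3). Scn2a, a channel of excitatory neurons and their axons, spanned 8.83 to 19.1 FPKM in Pushen, 9.80 to 15.3 FPKM in PT and 13.1 to 14.8 FPKM in Sham, and stood at -0.28 ± 0.26 (adjusted p = 0.444). By the table's coordinates on GRCm38, Scn3a (chr2:65457118-65567627, minus strand), Scn2a (chr2:65620771-65767447, plus strand) and Scn1a (chr2:66270778-66440814, minus strand) lie in one cluster with Scn9a and Scn7a, and of the tested neighbours Scn3a alone was called.

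Among the sodium channel beta genes, Scn2b, whose protein is joined to the pore by a disulfide bond, had 48.4, 46.5 and 51.1 FPKM in Pushen libraries, 41.5, 49.9 and 49.2 FPKM in PT libraries and 58.3, 60.2 and 58.9 FPKM in Sham libraries. The PT and Sham values did not overlap, and its change of -0.39 ± 0.088 passed (adjusted p = 0.0108). Scn3b stood at -0.22 ± 0.49 (adjusted p = 0.764) and spanned 2.64 to 8.96 FPKM within Pushen, 3.40 to 6.74 FPKM within PT and 2.92 to 7.35 FPKM within Sham.

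Of the 8 tested alpha1 genes, Cacna1g and Cacna1i fell. Both encode T-type channels, which open at low voltage and underlie burst firing. Cacna1g had 8.50, 9.67 and 10.9 FPKM in Pushen libraries, 7.34, 8.09 and 9.59 FPKM in PT libraries and 10.2, 12.4 and 12.1 FPKM in Sham libraries, with a change of PT over Sham of -0.53 ± 0.13 (adjusted p = 0.0186). Its call was lost without PT library 1 or 2 or Sham library 2 or 3 (adjusted p between 0.0554 and 0.0635). Cacna1i had 11.3, 11.3 and 11.4 FPKM in Pushen libraries, 10.5, 11.2 and 13.4 FPKM in PT libraries and 13.6, 16.2 and 15.2 FPKM in Sham libraries, and changed by -0.41 ± 0.10 (adjusted p = 0.0179). No infarct value reached the Sham values. The call was lost without PT library 2 or Sham library 2 (adjusted p = 0.0595 and 0.0667). The third T-type gene, Cacna1h, had 9.91, 6.58 and 8.31 FPKM in PT libraries and 5.66, 6.89 and 5.71 FPKM in Sham libraries. Its fitted change was positive, 0.39 ± 0.15, but PT library 2 lay within the Sham values and it was not called (adjusted p = 0.0742; 0.0181 without PT library 2).

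Cacna1a and Cacna1b, the P/Q-type and N-type channels of presynaptic terminals, did not pass in PT against Sham. Cacna1a was the most abundant alpha1 gene, with 14.97, 13.3 and 13.95 FPKM in Pushen libraries, 12.1, 14.4 and 16.7 FPKM in PT libraries and 16.3, 18.5 and 17.3 FPKM in Sham libraries (change of PT over Sham -0.33 ± 0.12, adjusted p = 0.0650). Cacna1b had 11.98, 10.7 and 6.62 FPKM in Pushen libraries, 8.20, 9.95 and 12.04 FPKM in PT libraries and 13.0, 14.4 and 14.2 FPKM in Sham libraries (change -0.52 ± 0.21, adjusted p = 0.0898). All infarct values of Cacna1b lay below all Sham values, and those of Cacna1a overlapped in PT library 3 alone. Cacna1a passed without PT library 3 (adjusted p = 0.0104), and Cacna1b without PT library 3 or Pushen library 3 (adjusted p = 0.0484 and 0.0231). The L-type genes Cacna1c, at 2.48 to 3.59 FPKM over all libraries, and Cacna1d, at 2.88 to 4.06 FPKM, which link activity to gene expression, stood at 0.12 ± 0.12 and -0.24 ± 0.13 (adjusted p = 0.482 and 0.182). The R-type gene Cacna1e stood at -0.35 ± 0.30 (adjusted p = 0.403).

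Cacnb4 was the member with the largest called fall. It encodes an intracellular beta subunit whose loss causes ataxia and seizures in lethargic mice. It measured 22.9, 23.0 and 24.6 FPKM in Pushen libraries, 14.97, 20.0 and 22.2 FPKM in PT libraries and 37.6, 33.6 and 32.7 FPKM in Sham libraries. Every infarct library lay below every Sham library, and every Pushen library lay above every PT library. The change of PT over Sham was -0.92 ± 0.14 (adjusted p = 0.00196), a level 0.529 times that of Sham. On chromosome 2 (chr2:52428320-52676831, minus strand) its exons share 1433 bases with the opposite-strand transcript A430018G15Rik, whose mean count was 86.1. Cacnb3, the most abundant beta gene, had 44.3, 43.4 and 48.7 FPKM in Pushen libraries, 47.3, 45.4 and 48.7 FPKM in PT libraries and 53.3, 54.5 and 55.4 FPKM in Sham libraries. Its change was smaller, -0.26 ± 0.075 (adjusted p = 0.0278), and was lost without PT library 1 or 2 or any of the Sham libraries (adjusted p between 0.0503 and 0.0895). Cacnb1, at 27.1 to 35.5 FPKM in Pushen, 26.7 to 31.8 FPKM in PT and 31.6 to 35.1 FPKM in Sham, and Cacnb2, at 2.68 to 2.89, 2.69 to 3.01 and 2.73 to 3.42 FPKM in the same groups, stood at -0.23 ± 0.12 and -0.16 ± 0.10 (adjusted p = 0.160 and 0.270).

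The summed FPKM of the 4 beta genes was 102 ± 8.20 in Pushen, 98.5 ± 6.06 in PT and 125 ± 1.04 in Sham (SD, n = 3 each). Within this sum, Cacnb4 took 23.0% ± 0.926 in Pushen, 19.2% ± 2.64 in PT and 27.6% ± 1.95 in Sham. Its share differed by -8.38 percentage points between PT and Sham (exact two-sided permutation test, p = 0.1, the smallest that 3 libraries against 3 allow). Cacna1h took 11.3% ± 0.130 of the summed alpha1 FPKM in Pushen, 13.5% ± 3.46 in PT and 8.25% ± 0.579 in Sham, so its share in PT and Sham did not overlap although its level did (exact permutation test, p = 0.1).

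Among the Cacng genes, Cacng2, Cacng3 and Cacng8 fell, type I TARPs that carry AMPA receptors to synapses. Cacng2, or stargazin, whose loss gives the ataxic and epileptic stargazer mouse, had 14.1, 14.6 and 17.4 FPKM in Pushen libraries, 12.6, 13.8 and 15.97 FPKM in PT libraries and 19.6, 20.7 and 20.5 FPKM in Sham libraries. No infarct value reached the Sham values, and the change of PT over Sham was -0.57 ± 0.11 (adjusted p = 0.00625). The antisense transcript A730060N03Rik shares 323 bases with its exons and had a mean count of 402. Cacng3 measured 31.7, 28.0 and 44.7 FPKM in Pushen libraries, 28.2, 35.6 and 16.9 FPKM in PT libraries and 42.4, 46.0 and 47.0 FPKM in Sham libraries. Its change of -0.80 ± 0.26 passed (adjusted p = 0.0423) but was lost without PT library 1 or 3, Pushen library 1 or any Sham library (adjusted p between 0.0579 and 0.0955). Cacng8, abundant at forebrain synapses, had 25.0, 21.7 and 21.2 FPKM in Pushen libraries, 17.9, 18.8 and 21.4 FPKM in PT libraries and 24.1, 25.7 and 22.3 FPKM in Sham libraries. The PT values lay below the Sham values, with a change of -0.37 ± 0.10 (adjusted p = 0.0246), lost without PT library 1 or 2 or Sham library 1 or 2 (adjusted p between 0.0722 and 0.0859).

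The type II TARP gene Cacng5 rose, and its relative Cacng7 and the type I gene Cacng4 did not pass. Cacng5 had 2.90, 3.04 and 1.71 FPKM in Pushen libraries, 1.41, 1.81 and 2.10 FPKM in PT libraries and 1.04, 1.06 and 0.92 FPKM in Sham libraries. All infarct values exceeded all Sham values, with a change of PT over Sham of 0.76 ± 0.23 (adjusted p = 0.0354), lost without PT library 2 or 3 or any Sham library (adjusted p between 0.0803 and 0.102). Cacng7, the most abundant Cacng gene, had 78.5, 73.0 and 88.0 FPKM in Pushen libraries, 79.2, 80.5 and 89.6 FPKM in PT libraries and 81.4, 92.7 and 95.7 FPKM in Sham libraries. These overlapped, and the change of -0.17 ± 0.10 did not pass (adjusted p = 0.232). Cacng4 had 6.23, 6.48 and 5.98 FPKM in Pushen libraries, 13.6, 6.83 and 5.37 FPKM in PT libraries and 4.52, 5.09 and 4.75 FPKM in Sham libraries. All infarct values lay above Sham, but 1 library set much of the PT mean: the change was 0.79 ± 0.29 (adjusted p = 0.0648) with all libraries and 0.29 without PT library 1 (adjusted p = 0.0983). Of 10 astrocyte genes 9 rose and of 10 oligodendrocyte progenitor genes 7 rose in PT, with 0 lower in both lists. Higher calls made up 19.1% of all tested genes. The summed FPKM of the astrocyte list was 709 to 946 in Pushen, 817 to 1170 in PT and 459 to 505 in Sham, and that of the progenitor list 100.2 to 102 in Pushen, 86.1 to 133 in PT and 65.5 to 78.4 in Sham. No gene of these lists was listed at 0, and their part in the values of Cacng5 and Cacng4 was not tested. Cacng5 (chr11:107874605-107915055, minus strand) lies beside Cacng4 and Cacng1 on chromosome 11.

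**Figure D2:**
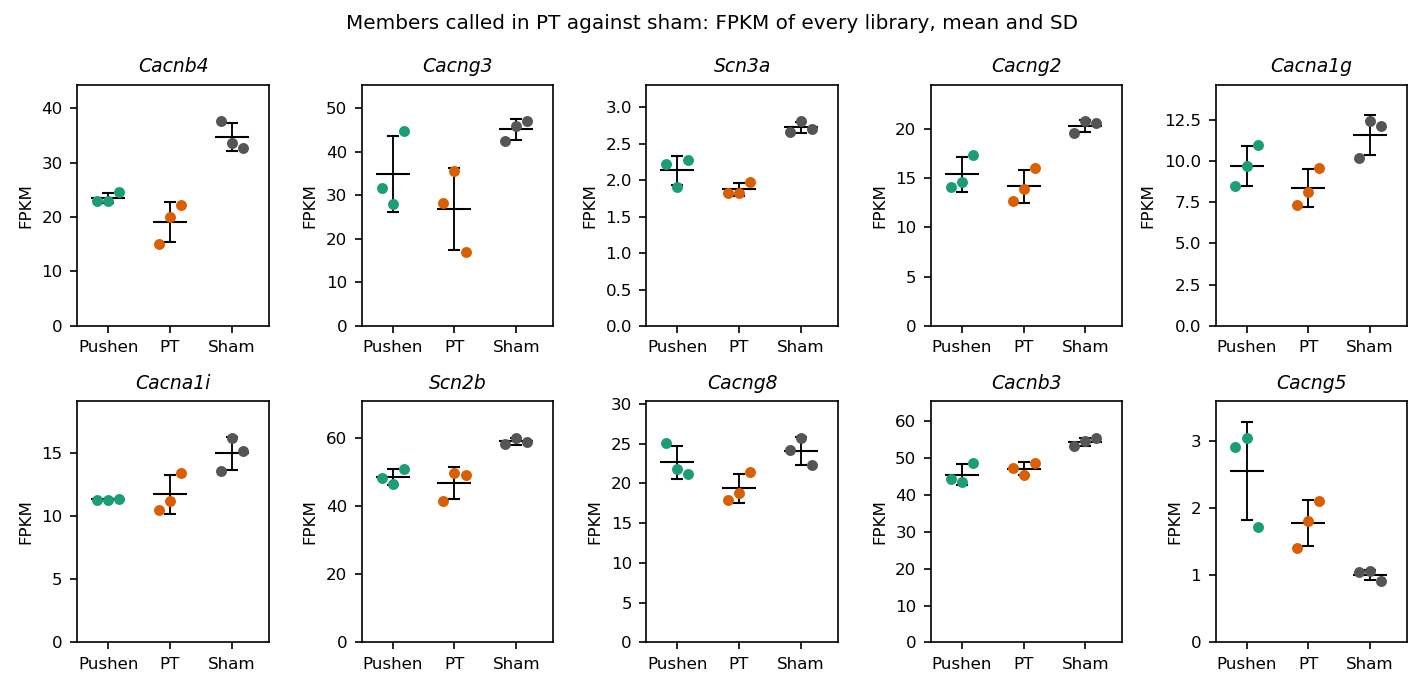
FPKM (vertical axes) of the 10 members called in PT against Sham, 1 point per library, with the mean (bar) and SD of each group of 3. Sham points lie above the PT points in 9 panels, and below the PT and Pushen points in the panel of Cacng5.

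Promoter windows were read for Cacnb4, Cacng2 and Scn2b, whose PT change was called under every alternative setting and which have a window. That of Cacng5, the 1 called rise, was read as well, to show how unlike these windows are. The RefSeq windows on GRCm38.p6 run from 250 bases before to 50 after a RefSeq start, on the gene's strand. Of the 40 members 30 have at least 1. Shown are the most upstream windows, at chr2:52676094-52676393 (minus) for Cacnb4, chr15:78119231-78119530 (minus) for Cacng2, chr9:45117626-45117925 (plus) for Scn2b and chr11:107915006-107915305 (minus) for Cacng5. By the deposited coordinates the minus-strand genes Cacnb4 and Cacng2 begin further upstream, at 52676831 and 78120028. Their windows therefore lie inside the gene and need not describe its outermost start. The plus-strand gene Scn2b begins at 45117782, within its window, so that window lies partly inside the gene. Capitals mark GGGCGG (the GC box), TGANTCA (the AP-1 element) and CCAAT, each on either strand.
Cacnb4: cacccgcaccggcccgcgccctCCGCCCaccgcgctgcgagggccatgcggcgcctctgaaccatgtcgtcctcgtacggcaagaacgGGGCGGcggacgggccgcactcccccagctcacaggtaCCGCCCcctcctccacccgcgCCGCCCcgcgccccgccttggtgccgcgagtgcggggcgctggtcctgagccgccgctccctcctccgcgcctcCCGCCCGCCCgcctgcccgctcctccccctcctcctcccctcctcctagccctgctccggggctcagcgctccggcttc
Cacng2: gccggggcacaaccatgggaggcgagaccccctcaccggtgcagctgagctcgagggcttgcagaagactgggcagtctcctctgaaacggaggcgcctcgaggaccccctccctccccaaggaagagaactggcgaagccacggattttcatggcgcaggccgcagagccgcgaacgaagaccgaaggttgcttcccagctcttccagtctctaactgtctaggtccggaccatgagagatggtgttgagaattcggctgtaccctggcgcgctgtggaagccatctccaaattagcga
Scn2b: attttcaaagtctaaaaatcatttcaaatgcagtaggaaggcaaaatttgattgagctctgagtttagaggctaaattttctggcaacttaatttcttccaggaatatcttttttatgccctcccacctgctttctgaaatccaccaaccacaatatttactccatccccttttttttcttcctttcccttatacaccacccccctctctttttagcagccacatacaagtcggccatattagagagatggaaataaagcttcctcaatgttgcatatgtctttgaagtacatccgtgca
Cacng5: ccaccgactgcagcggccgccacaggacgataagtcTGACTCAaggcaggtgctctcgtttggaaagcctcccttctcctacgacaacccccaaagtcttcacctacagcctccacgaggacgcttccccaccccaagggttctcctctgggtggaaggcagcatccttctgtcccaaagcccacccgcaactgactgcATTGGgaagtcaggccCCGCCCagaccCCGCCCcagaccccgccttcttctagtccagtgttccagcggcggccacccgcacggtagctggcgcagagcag
G and C made up 78.3% of the Cacnb4 window, 61.0% of that of Cacng2, 38.3% of that of Scn2b and 63.3% of that of Cacng5, against a median of 52.7% over 32851 windows. The Cacnb4 window held 6 GC boxes, 1 pair overlapping, and the Cacng5 window 2, while 35.7% of all windows held at least 1. TGANTCA was found in the Cacng5 window and in no other window of the 40 genes, and in 7.81% of all windows. CCAAT stood once in the Cacng5 window and in 37.4% of all windows. Neither TGACGTCA, the cAMP response element, nor TTCAGCACC, the left part of the element bound by the neuronal repressor REST, was in any of the 41 member windows, and 1.79% and 0.371% of all windows held them. Matches are descriptions of letters and were not tested as sites.

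Set against the mean log2(FPKM + 0.1) of the 21 pan-neuronal genes in the same library, few members were lower in PT than in Sham. Relative to its Sham mean, the pan-neuronal level stood at -0.32, -0.35 and -0.06 in Pushen libraries 1, 2 and 3, at -0.56, -0.37 and -0.27 in PT libraries and at 0.05, -0.03 and -0.02 in Sham libraries. After subtraction, 8 of the 29 members had a lower mean in PT than in Sham and 21 a higher one. Because the pan-neuronal list itself fell in PT, any gene that fell less or stayed level moves up on this measure. The measure was not computed for all tested genes, so these counts have no share to be set beside. Cacna2d1 (-0.56) and Cacnb4 (-0.48) were the 2 members whose PT libraries all lay below all Sham libraries. Those whose PT libraries all lay above numbered 9, with Cacng5 (1.14), Cacng4 (1.12), Cacna1h (0.82) and Cacna1c (0.57) at the top. Scn3a (-0.12) and Cacng2 (-0.12), called in the fit, lay near the neuronal genes on this measure, and Scn2b (0.06) and Cacnb3 (0.19) lay slightly above.

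**Figure D3:**
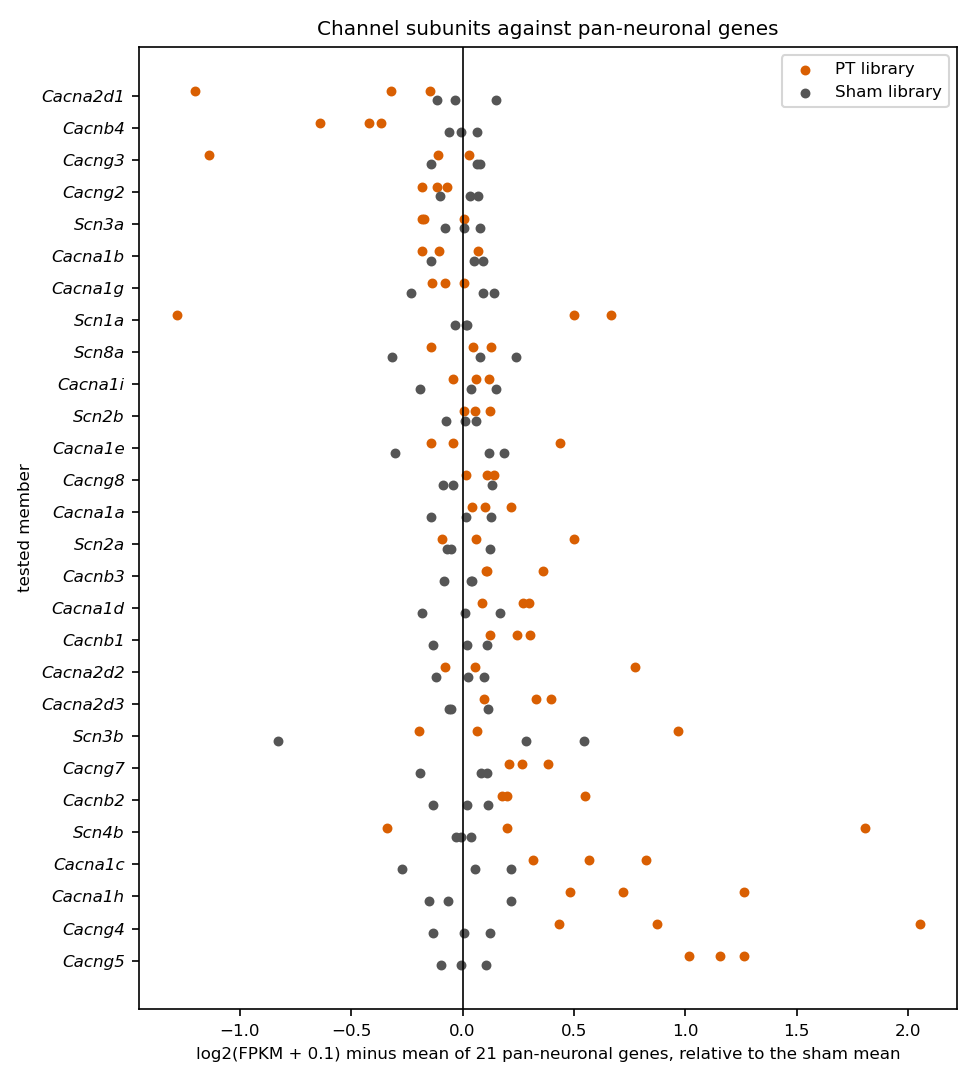
Level of tested members (vertical axis) minus the mean of the 21 pan-neuronal genes in log2(FPKM + 0.1), set to 0 at the Sham mean (horizontal axis), with PT libraries in orange above Sham libraries in grey. Cacnb4 is left of its Sham points in all 3 PT libraries, and Cacng5, at a mean of 1.14, is right of them.

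The spread between libraries of one group was large for some members. In 8 of 29 tested members (27.6%), the highest and lowest FPKM within a group differed by over 2-fold, beside 20.0% of all tested genes and 11.7% of the 12141 tested genes within the members' range of mean FPKM. Scn1a, prominent in parvalbumin interneurons, measured 15.6, 13.7 and 5.53 FPKM in Pushen libraries, 3.33, 13.4 and 16.2 FPKM in PT libraries and 12.4, 12.1 and 12.2 FPKM in Sham libraries. Sham was even, while PT library 1 and Pushen library 3 were low. The lowest value rests on 3022 counts. The change of PT over Sham was -0.21 ± 0.53 (adjusted p = 0.787), and 0.22 without PT library 1. Cacna2d1, the gabapentin-binding alpha2delta subunit and a receptor for thrombospondins in mice, had 4.41, 14.2 and 3.52 FPKM in Pushen libraries, 1.89, 4.10 and 4.97 FPKM in PT libraries and 7.70, 6.35 and 6.07 FPKM in Sham libraries. All PT values were below all Sham values, yet the change of -0.93 ± 0.52 did not pass (adjusted p = 0.205). Pushen library 2 held the highest value and the other Pushen libraries lay among the PT values. With PT library 1 and Pushen library 2 both omitted, the change was -0.62 and passed (adjusted p = 0.0363). Cacna2d3, the most abundant alpha2delta gene, had 9.07, 8.63 and 7.43 FPKM in Pushen libraries, 8.56, 7.95 and 10.0 FPKM in PT libraries and 9.61, 10.2 and 9.10 FPKM in Sham libraries (change of PT over Sham -0.18 ± 0.11, adjusted p = 0.240). PT overlapped with Sham, while every Pushen value lay below every Sham value. Cacna2d2, at 4.39 to 5.24 FPKM in Pushen, 4.07 to 6.03 FPKM in PT and 4.96 to 5.50 FPKM in Sham, stood at -0.19 ± 0.15 (adjusted p = 0.368), and at -0.39 without PT library 1 (adjusted p = 0.0213).

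Scn4b, a beta subunit abundant in striatum that takes part in resurgent sodium current, had 23.6, 21.7 and 20.96 FPKM in Pushen libraries, 67.3, 25.3 and 18.6 FPKM in PT libraries and 30.2, 27.2 and 28.0 FPKM in Sham libraries. PT library 1 was far above all others, and the remaining infarct libraries lay below all Sham libraries. The sign followed this library: PT over Sham was 0.32 ± 0.39 (adjusted p = 0.563) with it, and -0.43 (adjusted p = 0.0472) without it. Pushen over Sham was -0.43 ± 0.39 (adjusted p = 0.480) in the full fit. Without PT library 1 this change was again -0.43 and passed (adjusted p = 0.0313). Adora2a, a striatal adenosine receptor gene, reached 27.7 FPKM in PT library 1, with the other libraries between 0.52 and 3.81 FPKM. For the dopamine receptor gene Drd2 these values were 20.6 FPKM and 0.24 to 2.96 FPKM. The part of striatal RNA in the level of Scn4b was not tested.

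**Figure D4:**
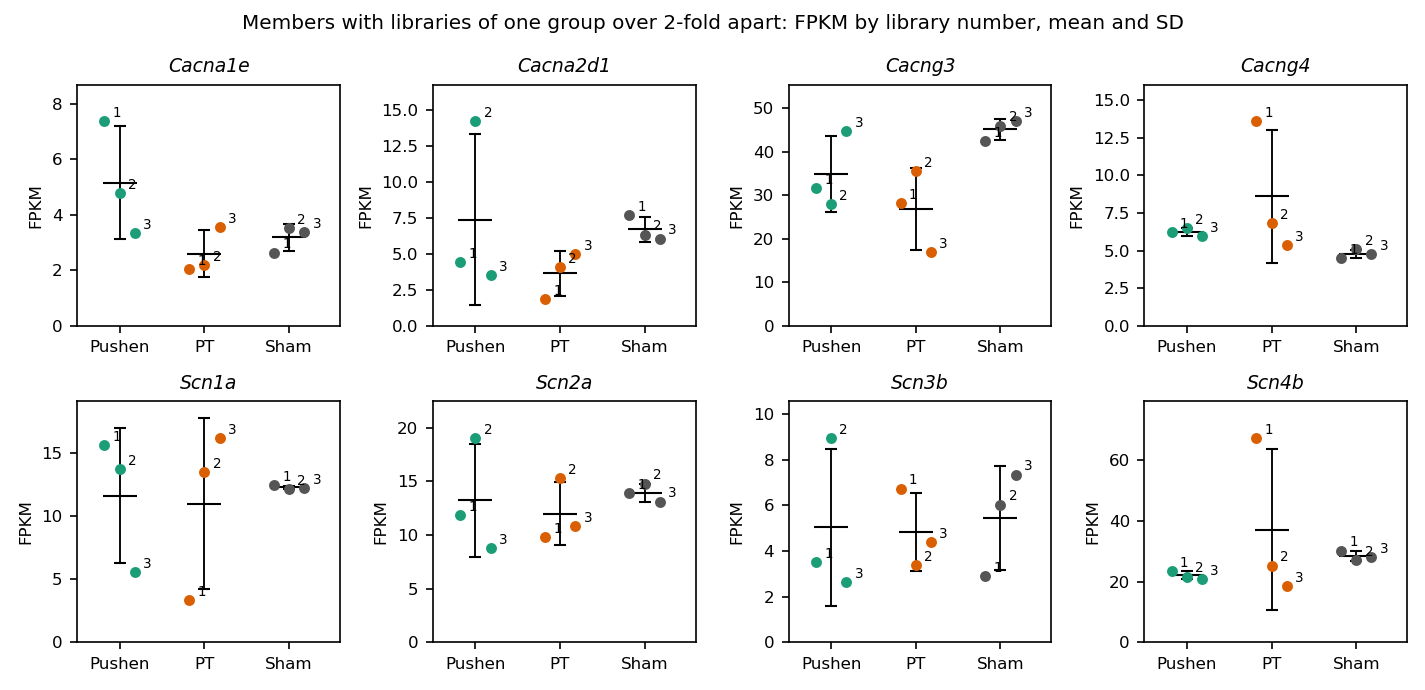
FPKM (vertical axes) of the 8 members with libraries of one group over 2-fold apart, 1 point per library with its number, and the mean and SD of each group. PT library 1 is lowest for Scn1a at 3.33 and Cacna2d1 at 1.89 FPKM and highest for Scn4b at 67.3 and Cacng4 at 13.6 FPKM.

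Pushen was compared with PT to ask whether the treatment changed these genes. None of the 29 tested members passed edgeR's quasi-likelihood test, where 0% of all tested genes passed. DESeq2 called 0 members, and 20 higher and 28 lower among all tested genes. At an unadjusted p under 0.05 the count was 1 member, Cacna1e, beside 6.49% of all tested genes. This R-type alpha1 gene had 7.36, 4.78 and 3.33 FPKM in Pushen libraries, 2.04, 2.19 and 3.56 FPKM in PT libraries and 2.64, 3.52 and 3.39 FPKM in Sham libraries. Pushen library 3 lay below PT library 3, so the groups overlapped. Its change of Pushen over PT was 0.97 ± 0.30 (adjusted p = 0.707), and 0.63 without Pushen library 1. Groups of Pushen and PT did not overlap in 1 member, Cacnb4 (3.45% of the 29), higher with Pushen, beside 7.25% of all tested genes; 0 were lower, beside 5.19%. The change of Cacnb4 in Pushen over PT was 0.29 ± 0.14 (adjusted p = 0.707). Cacng5 (0.51 ± 0.23), Cacng8 (0.21 ± 0.10), Scn3a (0.18 ± 0.091), Cacna2d1 (1.00 ± 0.52) and Scn4b (-0.76 ± 0.39) shared that adjusted p of 0.707. Without Pushen library 2 the change of Cacna2d1 was 0.11, and without PT library 1 that of Scn4b was -0.0014. Over the 29 members the median of Pushen over PT was 0.04, against -0.0081 over all tested genes.

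Pushen against Sham shares its Sham libraries with the comparison above, so the values are given side by side and not as independent support. Here 7 of 29 members (24.1%) passed, beside 16.2% of all tested genes; 6 were lower (20.7%), beside 2.73%, and 1 was higher, beside 13.5%. Cacnb4 stood at -0.63 ± 0.14 (adjusted p = 0.0166), Cacna1i at -0.47 ± 0.10 (adjusted p = 0.0155), Cacng2 at -0.47 ± 0.11 (adjusted p = 0.0241), Scn3a at -0.42 ± 0.091 (adjusted p = 0.0144), Scn2b at -0.35 ± 0.088 (adjusted p = 0.0281) and Cacnb3 at -0.32 ± 0.075 (adjusted p = 0.0193). Cacng5 stood at 1.26 ± 0.23 (adjusted p = 0.00656) and was the 1 member called in this comparison under every alternative setting. Cacna1a (-0.37 ± 0.12, adjusted p = 0.0664) and Cacna1b (-0.57 ± 0.21, adjusted p = 0.0965) missed the threshold. Without Pushen library 1 or 2 or Sham library 1, 2 or 3, the number of members called was 2, 1, 3, 2 and 4. Among all tested genes these fits called 1484, 1494, 1547, 1431 and 1751 higher and 84, 100, 113, 107 and 149 lower. Cacnb4 lost its call without Pushen library 1 or 2 or Sham library 1 (adjusted p between 0.0645 and 0.0671), Cacna1i without Pushen library 1 or 2 or Sham library 2 (between 0.0574 and 0.0673), and Scn3a without Pushen library 2 or Sham library 2 (0.0511 and 0.0606). Cacng2, Scn2b and Cacnb3 lost theirs without Pushen library 1 or 2 or any Sham library (adjusted p between 0.0564 and 0.109). The FPKM of Pushen and Sham did not overlap in 13 members, beside 40.3% of all tested genes: 11 were lower with Pushen (37.9%), beside 13.1%, and 2 higher, beside 27.2%. At an unadjusted p under 0.05 there were 13 members, beside 31.9%.

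**Figure D5:**
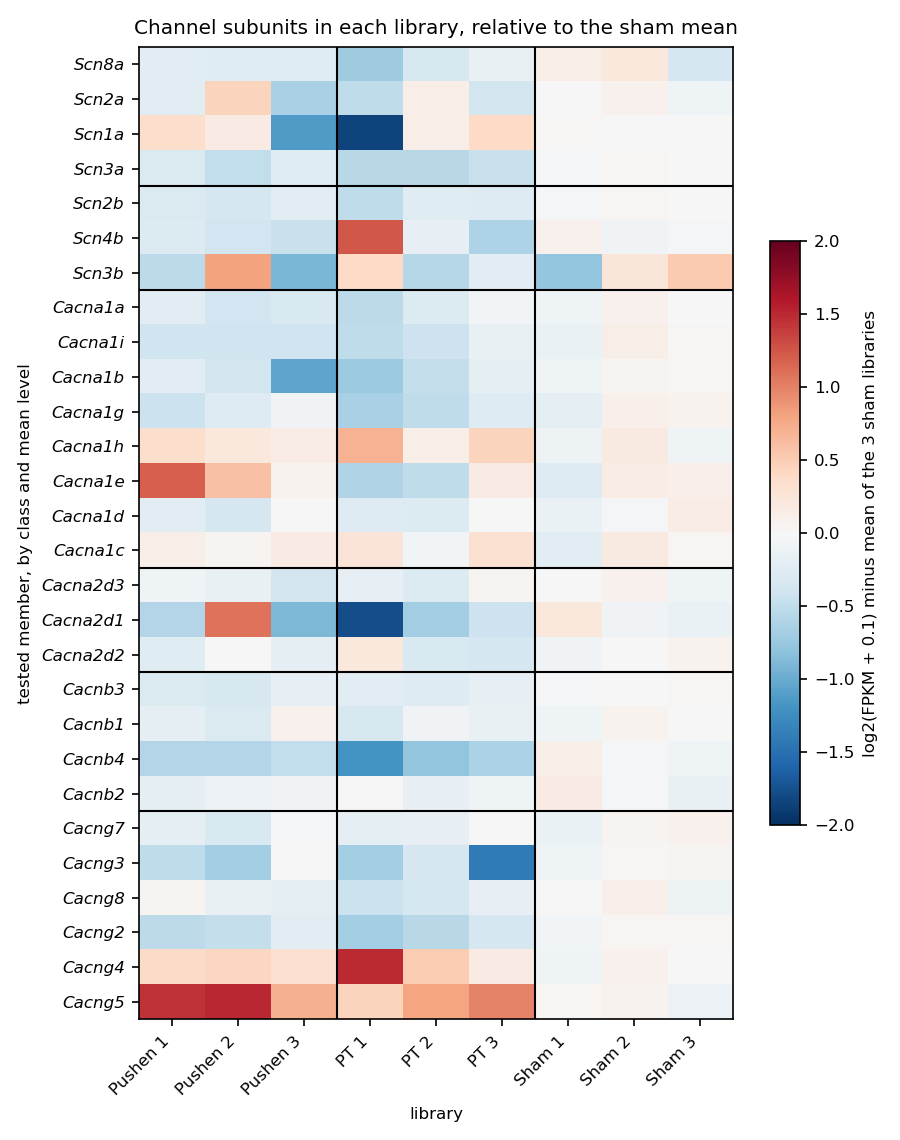
Tested members (rows, by class) in each library (columns, Pushen, PT and Sham), coloured by log2(FPKM + 0.1) minus the mean of the 3 Sham libraries, red higher and blue lower. Cacnb4, at 22.9 to 24.6 FPKM in Pushen and 14.97 to 22.2 FPKM in PT, is blue in all infarct libraries and Cacng5 red, while Scn1a is dark blue in PT library 1 at 3.33 FPKM.

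Genes whose proteins work with these channels were taken from lists chosen by function. Beside the lists, 11.8% of all tested genes were lower and 19.1% higher in PT against Sham. Of 25 sodium channel and axon initial segment partners, all tested, 10 fell and 2 rose in PT against Sham (median -0.20). Those that fell included Fgf14 (-0.67 ± 0.09) and Fgf12 (-0.85 ± 0.16), intracellular regulators of sodium channel gating, and Ank3 (-0.44 ± 0.13), which encodes ankyrin-G, the scaffold that holds sodium channels at the initial segment. Pacs2 (1.25 ± 0.19) was among those that rose. Of 36 tested calcium channel partners and regulators 14 fell and 8 rose (median -0.24), the rises being near the 19.1% of all tested genes. Gem (2.66 ± 0.35) and Rrad (1.57 ± 0.28), small GTPases of a family that binds beta subunits and reduces calcium current, rose. Gem measured 3.19, 2.40 and 1.36 FPKM in Pushen libraries, 3.43, 3.20 and 2.73 FPKM in PT libraries and 0.29, 0.57 and 0.55 FPKM in Sham libraries. Thbs1 (3.31 ± 0.44) and Thbs2 (1.60 ± 0.25), thrombospondins that bind Cacna2d1 in mice, rose as well. Members of the NALCN sodium leak channel complex fell, with Unc80 at -0.88 ± 0.14, Unc79 at -0.53 ± 0.11 and Nalcn at -0.50 ± 0.10, and so did active zone genes that position calcium channels, with Rimbp2 at -0.73 ± 0.17 and Rims1 at -0.53 ± 0.11. A list of 10 interneuron genes held Sst, Vip, Gad1 and Gad2 beside Pvalb, so it was not limited to parvalbumin or fast-spiking cells. Of these genes 5 fell (Gad1, Kcnc1, Gad2, Sst and Pvalb) and 0 rose. Gad1, which makes GABA, stood at -0.53 ± 0.10 and the fast potassium channel gene Kcnc1 at -0.56 ± 0.14. Pushen against Sham gave 2 lower and 1 higher among the sodium channel partners, 7 lower and 6 higher among the calcium channel partners, and 2 lower in the interneuron list. Among all tested genes 2.73% were lower and 13.5% higher in that comparison. In Pushen against PT, 0 genes of these lists passed.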

How the data were processed

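Total RNA was turned into libraries with a TruSeq RNA kit (labels' protocols). Values deposited by the authors are read counts for each gene and, beside them, FPKM. Bowtie 0.12.2 and the build mm8 are named in the submitters' processing notes, while 94.2% of the gene identifiers shared with GENCODE M21 have that annotation's GRCm38 start and end. How reads were counted, and whether by strand, is not given in the sources used here, so genes with overlapping transcripts have uncertain values. All 18 value columns were matched by name.

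The 16740 genes averaging 0.5 FPKM or more were fitted over all 3 groups with TMM scaling in edgeR 4.0.16 (quasi-likelihood test, R 4.3.3), with Benjamini-Hochberg adjustment over all of them within a comparison. Values after ± are the SE for fold changes (fold change over the square root of F) and the SD for means. The pipeline was also run on simulated counts with the same spread for every gene and no outlying library. That run does not cover members uneven within a group, and no result here rests on it. Alternatives were other filters and scalings, DESeq2 1.42.0, limma 3.58.1 on log2 values, the compared groups alone, a replicate block, and omitted libraries. Members, lists and alternatives were chosen with earlier results of these data known. All members enter the counts, and the values of some are not reported here. FPKM of each library is given, among the members reported, for those called in a comparison, the most abundant of a class, those whose groups did not overlap, and, chosen after the values were seen, those uneven within a group. Of the lists, genes called at small p are named; Ank3, Rimbp2, Rims1, Unc79, Nalcn and Rrad, called at larger p, were chosen after the values were seen. Figures were drawn with matplotlib 3.10.9.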

Additional observations from a re-analysis of the deposited data

How the results depend on the processing

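In PT against Sham, Cacnb4, Cacng2, Scn3a and Scn2b were called under all 22 alternatives, and Cacng5, Cacng3, Cacng8, Cacnb3, Cacna1g and Cacna1i under 13, 12, 16, 14, 17 and 19. With 1 library left out, the count of members called ran between 4 and 13, the lower ones between 4 and 12. In Pushen against Sham these counts ran between 1 and 10, and 0 and 9, and 11 were called when only these groups were fitted. That last fit called 2414 higher and 1239 lower among all tested genes. In Pushen against PT, 0 members were called in all 22. Quantile normalization shifted the median of all tested genes to -0.14 in PT against Sham, and 8 members were then called, all lower; among all genes it gave 2510 higher and 3490 lower calls, against 3202 and 1974. Library size scaling alone gave 3552 higher and 1430 lower, and 8 members. DESeq2 called 15 members in PT against Sham, and 3603 higher and 2654 lower among all tested genes. Without PT library 1 and Pushen library 2, 7 members were called in PT against Sham and 6 in Pushen against Sham. All tested genes then gave 2454 higher and 1011 lower calls in PT against Sham, and 1678 and 371 in Pushen against Sham. In this fit Scn4b stood at -0.43 and Scn1a at 0.22 in PT over Sham, and Cacna2d1 at -0.20 and Scn4b at 0.014 in Pushen over PT. Each was of opposite sign to the full fit, and the cause was not tested. With 1 library left out, PT over Sham ran between -0.62 and 0.22 for Scn1a, between -0.53 and 0.057 for Scn3b and between -0.43 and 0.63 for Scn4b. Replicate numbers are shared by the groups, but same-numbered libraries did not deviate together (r between -0.22 and 0.099). With a replicate block 8 members were called in PT against Sham and 7 in Pushen against Sham. All tested genes then gave 2814 higher and 1452 lower calls, and 1866 and 242. Class shares with 1 library left out were computed for Cacnb4, Cacna1h, Cacna2d1 and Scn1a only. The PT minus Sham difference ran between -9.46 and -6.91 percentage points for Cacnb4 and between 3.23 and 6.34 for Cacna1h. For Cacna2d1 it ran between -12.7 and -5.48. For Scn1a it ran between -4.02 and 6.16 and so changed sign. Shares were not recomputed from counts, since lengths are not given beside the counts. The values of the 11 members below the filter rest on at most 387 counts per library.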
